A study of Homo sapiens with 20 samples.

Results

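The collagen hydroxylases examined here are the lysyl hydroxylases PLOD1, PLOD2 and PLOD3 and the prolyl 4-hydroxylase subunits P4HA1 and P4HA2, 5 genes that were chosen by name with their exon inclusion and FUBP1 binding in these tables already seen. All skipped exon events of the 5 genes were taken, which gave 25 of 19792 events in the table for FUBP1 depletion, 28 of 32990 in the table for U3 depletion and 11 of 7065 in the table for FBL depletion, and 5 of 28278 genes in the RNA immunoprecipitation (RIP) table. The samples were HepG2 cells, a human liver cancer line. FUBP1, a nuclear RNA-binding splicing factor, was depleted for 48 h with 200 pmol siRNA (siFUBP1 against siCtrl2, 3 libraries each), and U3, a C/D box small nucleolar RNA, for 72 h with 600 pmol antisense oligonucleotide (U3 ASO against GFP ASO, 3 libraries each). Fibrillarin (FBL), the enzyme that places 2′-O-methyl groups at sites set by C/D box RNAs, was depleted for 48 h with 200 pmol siRNA (siFBL against siCtrl), and these cells gave 2 input and 2 FUBP1 RIP libraries in each condition. The study's methods give 200 pmol siRNA for large plates and less for smaller ones, and the plate is not named for these libraries. The sources name 1 siRNA or ASO per target, which with 1 cell line limits each group as a model, and the siRNA experiments used different control siRNAs. The libraries of each group are biological replicates per the study's methods. RNA of the siFUBP1, U3 ASO and matching control cells was selected for poly(A), whereas input RNA was recovered from cell lysate and no such step is named for it, which is a further difference between the tables.

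PLOD and P4HA proteins hydroxylate newly made procollagen in the endoplasmic reticulum. Lysyl hydroxylation sets the sites for sugar attachment and for crosslinks between collagen fibres, and prolyl 4-hydroxylation lets the collagen triple helix stay folded at body temperature. P4HA1 and P4HA2 are catalytic subunits that pair with protein disulfide isomerase (P4HB). PLOD2 is known for modifying the ends of collagen chains and exists in a long and a short form that differ by the exon treated first below, and PLOD3 also carries glycosyltransferase activity. These enzymes need iron and 2-oxoglutarate, and PLOD2, P4HA1 and P4HA2 are known targets of the hypoxia factor HIF1.

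Junction reads ranged from 2693397 to 4474350 per library in the siFUBP1 table, from 11249641 to 13321799 in the U3 table and from 910779 to 1142189 in the input table, so that events after FBL depletion were measured with the least precision. FUBP1 had 45.2 to 56.1 junction reads per 1e+06 in siCtrl2 and 4.08 to 10.1 in siFUBP1, or 14.9% of control. With 3 libraries a group, no exact permutation test over them can go below p = 0.1. For FBL the mean normalized count in the RIP table was 1034 in siCtrl and 164 in siFBL, which are separately normalized values. Such mean counts take RIP and input libraries together and are no measure of expression alone. The level of U3, a small RNA without skipped exon events, was not checked here. All 9 hepatocyte markers were detected in siCtrl cells, with mean counts from 3544 (TTR) to 1132700 (APOB). Of 9 markers of other cells, 7 had mean counts from 2 (LUM) to 65 (PECAM1), with the fibroblast collagens COL1A1, COL1A2 and COL3A1 at 33, 14 and 6, while CD68 had 631 and PDGFRB 1003.

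Of the events of these genes, the exons that carried alternative usage in coding sequence were in PLOD2 and P4HA1, and their sequences are shown because the inclusion values below turn on them. Capitals mark the exon, and lower case marks the last 30 intron bases before it and the first 10 after it (hg38, transcribed strand, here the minus strand).
PLOD2 exon 14, window chr3:146077852-146077954: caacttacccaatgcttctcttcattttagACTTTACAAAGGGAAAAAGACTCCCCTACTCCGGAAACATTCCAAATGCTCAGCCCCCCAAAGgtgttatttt
P4HA1 exon A, window chr10:73044971-73045081: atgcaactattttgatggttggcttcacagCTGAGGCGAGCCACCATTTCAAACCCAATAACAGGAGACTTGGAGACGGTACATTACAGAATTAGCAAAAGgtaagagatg
P4HA1 exon B, window chr10:73043877-73043987: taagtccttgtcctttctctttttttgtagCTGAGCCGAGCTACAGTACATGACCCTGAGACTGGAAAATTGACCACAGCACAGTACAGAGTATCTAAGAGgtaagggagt
P4HA1 exon of 50 bases, window chr10:73016836-73016925: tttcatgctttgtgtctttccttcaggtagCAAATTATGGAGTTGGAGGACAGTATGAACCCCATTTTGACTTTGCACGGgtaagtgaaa

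PLOD2 exon 14 lies at chr3:146077862-146077924 on the minus strand. It is 63 bases long, is exon 14 of 20 in the canonical GENCODE transcript, is wholly coding and adds 21 codons without moving the frame. GENCODE lists it in 15 of the 31 PLOD2 transcripts, while another 5 join its neighbours directly, 4 of them protein coding. Among exons of the 5 genes tested in all 3 tables it had the most information, defined as reads per library times the inclusion share times the skipping share. The 30 bases before it hold 12 T, and T made up 36% of the 100 bases before it, against a median of 35% over the 14722 exons tested in the siFUBP1 table.

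PLOD2 exon 14 was the minor form in all control libraries, and its level was higher in both FBL-depleted input libraries. Its inclusion level, the length-scaled share of inclusion reads on a scale from 0 to 1, was 0.146 and 0.0329 in the siCtrl input libraries and 0.498 and 0.387 in the siFBL input libraries, a change of 0.353. Both siFBL libraries lay above both siCtrl libraries. The reads behind these levels were 20 and 3 inclusion against 82 and 62 skipping reads in siCtrl, and 93 and 80 against 66 and 89 in siFBL. As shares of reads without length scaling, with Wilson 95% intervals that cover counting error only, these were 19.6% (13.1% to 28.4%) and 4.62% (1.58% to 12.7%) in siCtrl and 58.5% (50.7% to 65.9%) and 47.3% (40% to 54.8%) in siFBL. Intervals of the 2 conditions did not overlap, and neither did those of the 2 siCtrl libraries, so that libraries of 1 condition also differed by more than counting error.

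The reads of the forms were also set apart. Inclusion reads per 1e+06 junction reads of the library were 17.5 and 3.29 in siCtrl and 97.8 and 81.1 in siFBL. Skipping reads per 1e+06 were 71.8 and 68.1 in siCtrl and 69.4 and 90.2 in siFBL. The groups were apart for inclusion reads, with a ratio of means of 8.61, and overlapped for skipping reads, with a ratio of 1.14. With 2 libraries against 2 an exact permutation test cannot go below p = 0.33, so neither ratio could pass a test over libraries.

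After FUBP1 depletion the same exon was included at 0.194, 0.192 and 0.167 in siCtrl2 and at 0.183, 0.233 and 0.227 in siFUBP1, and the groups overlapped. Under U3 ASO it was included at 0.384, 0.345 and 0.291 against 0.315, 0.242 and 0.267 in GFP ASO, again with overlap. The changes of the group means were 0.03 and 0.0654. In siFUBP1 both kinds of read were higher in every library. Inclusion reads went from 34 ± 7.03 to 52.1 ± 5.28 per 1e+06 and skipping reads from 106 ± 16.1 to 135 ± 9.17 (SD, n = 3 each, exact two-sided permutation p = 0.1 for both). Levels of the 3 control groups should not be set against each other, since the tables come from different treatments, controls and library sets.

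**Figure D1:**
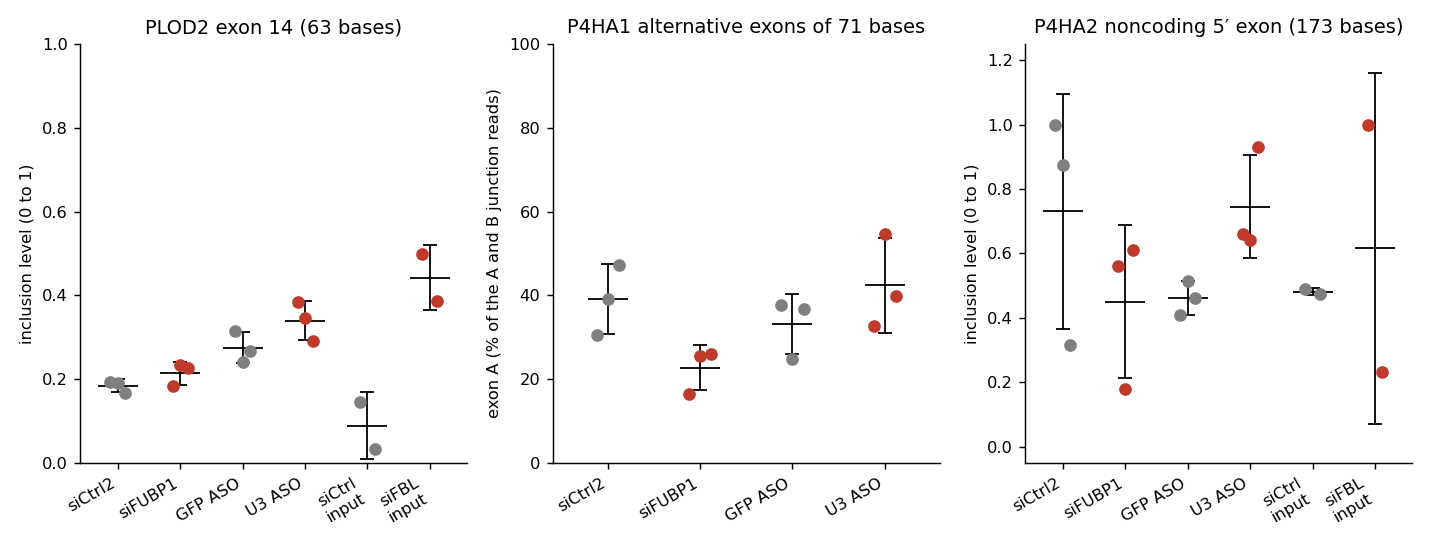
Usage of the main alternative exons in each library, with points for libraries and bars for mean ± SD (n = 3, or 2 for input). Left, inclusion level of PLOD2 exon 14 on the y axis, where the siFBL input libraries (0.498 and 0.387) lie above the siCtrl input libraries. Middle, reads of P4HA1 exon A to the next constant exon, as a percentage of these and the reads of the previous constant exon to B. The siFUBP1 libraries (16.5% to 26.1%) lie below siCtrl2. Right, inclusion level of a noncoding P4HA2 exon at the 5′ end. Its spread is wide in siCtrl2, siFUBP1 and siFBL input, and the U3 ASO libraries lie above GFP ASO. Grey marks controls and red marks depletions.

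**Figure D2:**
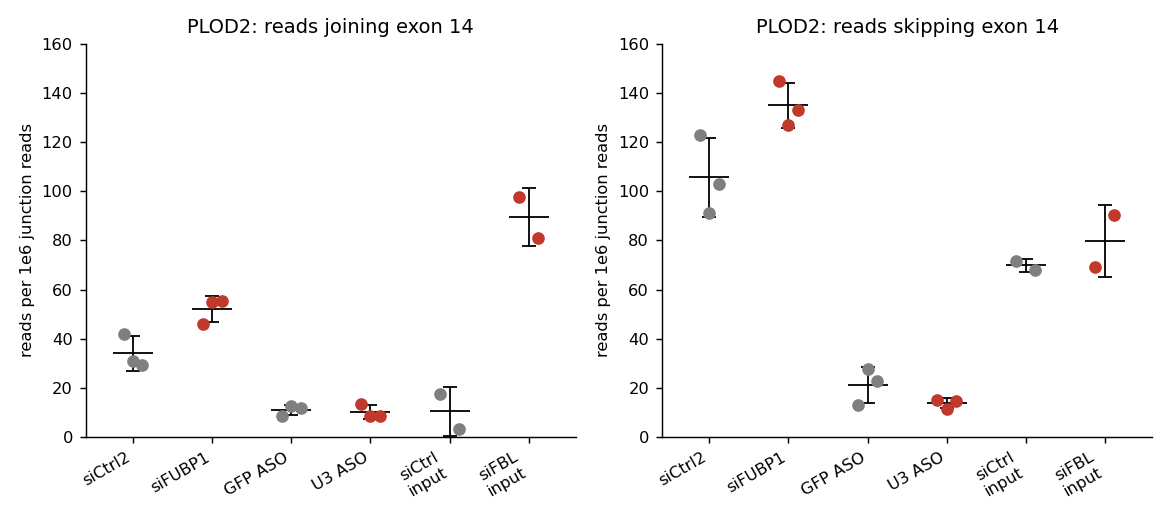
Reads joining PLOD2 exon 14 to its neighbours (left) and reads skipping it (right), per 1e+06 junction reads of the library (y axes), with points for libraries and bars for mean ± SD. Grey marks controls and red marks depletions. The siFBL libraries stand at 97.8 and 81.1 for inclusion reads against 17.5 and 3.29 in siCtrl, and the groups overlap for skipping reads.

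P4HA1, the major catalytic subunit of prolyl 4-hydroxylase in most cells, has a pair of alternative coding exons of 71 bases on the minus strand of chromosome 10. Exon A (chr10:73044981-73045051) is exon 9 of 15 in the canonical transcript, and exon B (chr10:73043887-73043957) follows it after 1023 bases of intron. GENCODE lists 2 transcripts with A alone, 3 with B alone and 0 with both. The exons are identical at 43 of 71 aligned positions (60.6%), and the exon 9 of the canonical P4HA2 transcript (chr5:132204082-132204152), also 71 bases long, is identical to A at 39 (54.9%) and to B at 41 (57.7%). Exon B has 17 T in its last 30 intron bases and exon A has 11. Since 71 bases leave a remainder of 2 after whole codons, leaving out or joining both exons would move the frame. The U3 table, which lists each exon between the constant exons, had 0 reads joining those constant exons directly in 5 libraries and 5 such reads in 1 U3 ASO library.

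By a share from 1 junction of each exon, exon A was lower in every siFUBP1 library. The share was read from the junction of A to the next constant exon and the junction of the previous constant exon to B, each of which can belong to only 1 of the exons unless both are joined. Reads that run on into a further exon may drop out of these counts, so the share serves to compare libraries and not to give the true proportion of the forms. This measure was chosen after the reads had been seen and is given without a test. In siCtrl2 the reads for A and B were 63 and 143, 87 and 135, and 70 and 78, and in siFUBP1 they were 59 and 298, 76 and 221, and 73 and 207. Exon A thus made up 30.6%, 39.2% and 47.3% in siCtrl2 and 16.5%, 25.6% and 26.1% in siFUBP1, or 39% ± 8.35 against 22.7% ± 5.4 (SD, n = 3 each). All 3 siFUBP1 libraries lay below the siCtrl2 libraries. The A reads stayed between 59 and 87, while reads of the previous constant exon to B ranged from 78 to 143 in siCtrl2 and from 207 to 298 in siFUBP1. Reads on the other side of exon B, to the next constant exon or from A, did not show this rise. They were 102, 120 and 95 in siCtrl2 and 138, 103 and 100 in siFUBP1. The junctions of exon B thus differed, and a switch from A to B cannot be read from the share alone.

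Under U3 ASO the same share was 32.6%, 54.7% and 39.8% against 37.8%, 24.9% and 36.7% in GFP ASO, and the groups overlapped. As a single event, exon B between the next constant exon and exon A had inclusion levels of 0.479, 0.579 and 0.471 in GFP ASO and 0.421, 0.357 and 0.294 in U3 ASO, a change of -0.152 without overlap. After FUBP1 depletion the levels of that event overlapped (0.523, 0.483 and 0.479 in siCtrl2 against 0.613, 0.479 and 0.481). Its inclusion reads also take in any that join A to B. Set against the events between the constant exons, the reads under U3 ASO and GFP ASO leave some for that junction in both groups. Those reads are not listed on their own, and the exons cannot be taken as strictly exclusive. The exon A event next to B had 0.0982, 0.138 and 0.253 in siCtrl2 and 0.0456, 0.0868 and 0.103 in siFUBP1, with 1 siFUBP1 library inside the siCtrl2 range. The pair was not listed in the input table.

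A further P4HA1 event in the siFUBP1 table concerned a form of exon 11 of 50 bases (chr10:73016846-73016895), which starts 4 bases inside the canonical form of 54 bases. Its level was 1 in all 3 siCtrl2 libraries and 0.619, 0.505 and 0.75 in siFUBP1, a change of -0.375 that rested on a mean of 22.2 reads per library. Skipping reads were 0 in each siCtrl2 library and 12, 11 and 1 in siFUBP1. The 4 bases after the shorter annotated exon 10 (gtag) are the same as the 4 bases that begin the longer exon 11 (gtag), and GENCODE pairs the short form of each exon with the long form of the other, so that reads cannot tell these annotated pairs apart. The pair of short forms in this event is in 0 GENCODE transcripts. An exon of 93 bases at chr10:73077721-73077813, which GENCODE does not list, was found in all 3 tables and had levels of at most 0.0913 except for 0.221 in 1 siCtrl input library, whose group overlapped with siFBL.

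P4HA2, the second catalytic subunit, varied mainly in noncoding exons at its 5′ end. Overlapping forms of 562, 290, 136 and 173 bases between chr5:132226697 and chr5:132227258 on the minus strand were tested in all 3 tables, and they share skipping reads and are no independent events. A siFBL library had no reads for the forms of 562 and 290 bases, and a siCtrl2 library had none for the form of 290 bases, so that these libraries dropped out of those fits. In the U3 table the form of 173 bases had levels of 0.41, 0.514 and 0.462 in GFP ASO and 0.662, 0.643 and 0.929 in U3 ASO, with no overlap and a change of 0.283. The forms of 136 and 290 bases changed by 0.284 and 0.389, also without overlap, and the form of 562 bases by 0.436 with overlap. In the siFUBP1 table the form of 173 bases went from 1, 0.875 and 0.317 to 0.562, 0.179 and 0.611, and in the input table from 0.489 and 0.474 to 1 and 0.231. These groups overlapped and the direction was not the same, at 24.5 and 25.8 reads per library on average. The coding P4HA2 exon 8 of 177 bases (chr5:132207708-132207884) was included at 0.971 or more in the siFUBP1 and U3 tables. After FBL depletion it went from 1 and 1 to 0.969 and 0.918, a change of -0.0567 without overlap.

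PLOD1 and PLOD3, the other lysyl hydroxylases, showed little alternative usage. A PLOD1 exon of 141 bases at chr1:11944522-11944662 on the plus strand, coding in 1 GENCODE transcript and absent from the canonical one, had levels of at most 0.0287 in all 16 libraries of the 3 tables. Its groups did not overlap after FUBP1 depletion, with 0.00242, 0.00172 and 0.0144 in siCtrl2 and 0 in each siFUBP1 library, a difference of -0.00617. The PLOD1 exon 8 (chr1:11957842-11957943), which had the most information of that gene in the siFUBP1 table, was at 0.954 or more. PLOD3 exon 17 (chr7:101207578-101207724), tested in all 3 tables, was at 0.959 or more in every library. PLOD3 exon 9 (chr7:101212530-101212655) and exon 6 (chr7:101215089-101215152), the events with the most information in the siFUBP1 and U3 tables, changed by 0.0283 and 0.00379. Levels averaged over 0.95 at 15 of 25, 19 of 28 and 4 of 11 events of the 5 genes in the siFUBP1, U3 and input tables, where 59%, 65.4% and 41.1% of all tested events did.

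All 64 events passed the minimum of 10 reads per library. The quasi-binomial fit over all events called 0 of the 25, 28 and 11 events in the siFUBP1, U3 and input tables at an adjusted p under 0.1, and the share of all tested events called was 0.197%, 0.226% and 0%. At an unadjusted p under 0.05 there were 2, 2 and 1, beside 4.59%, 4.13% and 2.26% of all tested events. PLOD2 exon 14 in the input table had an adjusted p of 0.874, and 1 of the 5218 events there had a lower unadjusted p. Run on the log2 odds of inclusion, limma also called 0 of them, and with a variance trend it called 1, the P4HA2 form of 562 bases under U3 ASO. Groups did not overlap at 2, 4 and 2 of the events, while 5.05%, 6.03% and 13.8% of all tested events had such groups. Since the genes were chosen with these inclusion values known, nothing is read from the counts. The median change over the events was -0.00138, 0.00197 and 0.0203, beside -0.00139, -0.00355 and -0.00326 over all events tested.

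Among the 3876 exons tested in all 3 tables, those with changes nearest to PLOD2 exon 14 (0.03, 0.065 and 0.353 for siFUBP1, U3 and siFBL) were in G6PC3, MASP2, MTIF2, RASGRF2 and TCF12. The nearest, in G6PC3, changed by 0.057, 0.074 and 0.342, at a Euclidean distance of 0.0304 over the 3 values. The others were within 0.0533 and had as few as 11.2 reads per library in 1 of the tables, against at least 124 for PLOD2.

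The number of junction reads per gene was not used to choose the genes by name, but it rests on the same reads as the inclusion levels. For each gene the event with the most reads was taken, in reads per 1e+06 junction reads of the library, with 15 comparisons in all by the exact permutation test and, beside it, limma over all genes. The limma fit was added after the data had been seen, and genes and measures were chosen with earlier results known. The p-values of both tests are therefore no independent evidence. The scale mattered under U3 ASO, since the median gene changed by 0.27 on the log2 scale, against -0.05 for siFUBP1 and -0.18 for siFBL. Changes relative to the median are therefore given too. Fewer copies of an RNA and fewer cells making it cannot be told apart in such bulk samples.

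P4HA1, PLOD1 and PLOD2 junction reads fell under U3 ASO. P4HA1 had 60.7, 57.7 and 56 reads per 1e+06 in GFP ASO and 16.5, 21.6 and 27.5 in U3 ASO, or 37.6% of control. PLOD1 had 125, 120 and 134 against 69.9, 67.3 and 63, or 52.8%. PLOD2 had 91.4, 97.2 and 106 against 62.9, 60.6 and 59.7, or 62.2%. For each of these genes all U3 ASO libraries lay below all GFP ASO libraries (exact two-sided permutation p = 0.1). By limma the log2 changes were -1.44 ± 0.16 for P4HA1, -0.92 ± 0.1 for PLOD1 and -0.68 ± 0.1 for PLOD2 (SE), with adjusted p of 3.53e-07, 1.05e-07 and 1.91e-05. Relative to the median gene they were -1.71, -1.19 and -0.96, and 1.38%, 3.99% and 6.28% of the 8456 genes had lower changes. Every tested event of these genes showed the direction, with ratios from 0.347 to 0.592 over 8 P4HA1 events, from 0.459 to 0.577 over 6 PLOD1 events and from 0.622 to 0.747 over 4 PLOD2 events. Events of a gene come from the same libraries and some share junctions, so they are no independent events.

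PLOD3 and P4HA2 did not share this fall. PLOD3 had 21.5, 21 and 21.7 reads per 1e+06 in GFP ASO and 26.3, 27.8 and 25.8 in U3 ASO, which are apart, but its log2 change of 0.31 ± 0.17 missed the threshold (adjusted p = 0.153 by limma) and was 0.04 relative to the median gene. P4HA2 had 33.7, 43.1 and 45.9 against 49.7, 40.3 and 36.5, and its change of 0.04 became -0.23 relative to the median gene. Under U3 ASO, 3 of the 5 genes were called lower and 0 higher, where 9.01% of all genes were called lower and 30.4% higher, and groups without overlap were found for 4 of 5 and for 44% of all genes. Hepatocyte markers moved with these genes under U3 ASO: 6 of the 8 with reads were called lower (AFP, ALB, APOA1, APOB, SERPINA1 and TF) and 2 higher (HNF4A and TTR), with a median log2 change of -0.43, or 6 and 0 with a median of -0.71 with centred libraries. Their part in the fall of P4HA1, PLOD1 and PLOD2 was not tested. With each library centred on its median gene the calls over all genes turned from 762 lower and 2570 higher to 1531 lower and 1150 higher, and P4HA1, PLOD1 and PLOD2 were still the genes of the 5 that were called.

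PLOD2 junction reads rose after FUBP1 depletion. They were 353, 349 and 395 per 1e+06 in siCtrl2 and 494, 488 and 539 in siFUBP1, or 139% of control (exact two-sided permutation p = 0.1). The log2 change was 0.47 ± 0.1 (SE, adjusted p = 0.00296 by limma), or 0.53 relative to the median gene. The 5 PLOD2 events, which are not independent, had ratios from 1.17 to 1.39. P4HA1 had 167, 169 and 178 in siCtrl2 and 219, 225 and 193 in siFUBP1, with no overlap and a log2 change of 0.31 ± 0.13 that missed the threshold (adjusted p = 0.16 by limma, and 0.0907 with libraries centred on the median gene). PLOD3 had 52.5, 47.6 and 46.3 against 48.3, 64.1 and 101, where 1 siFUBP1 library was high, with an adjusted p of 0.225 by limma. Without the siFUBP1 library at 48.3 it was 0.0594. PLOD1 and P4HA2 stood at 110% and 112% of control, with overlapping groups. Of the 5 genes 1 was called higher and 0 lower, where 4.29% of all genes were called higher and 4.82% lower, and 23.3% of all genes had groups without overlap, as 2 of the 5 did. Centring turned the calls over all genes from 302 lower and 269 higher to 223 lower and 336 higher.

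After FBL depletion 0 of the 5 genes were called by limma, where 2.19% of all genes were called lower and 0.807% higher, and 4 of the 5 had groups without overlap, as did 43.1% of all genes. PLOD2 had 89.3 and 71.4 reads per 1e+06 in siCtrl input and 167 and 171 in siFBL input, or 211% of control (log2 change 1.08 ± 0.36, adjusted p = 0.151 by limma, and 0.0727 with libraries centred on the median gene). Its only event there is exon 14, so these are the same reads as above, of which the inclusion reads made up the larger part of the difference. An included exon can be read at the junction on either side and a skipped one at a single junction. The total can therefore rise with inclusion alone. PLOD1, PLOD3, P4HA1 and P4HA2 stood at 83.4%, 131%, 75.8% and 93.3% of control. Centring turned the calls over all genes from 68 lower and 25 higher to 30 lower and 55 higher.

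**Figure D3:**
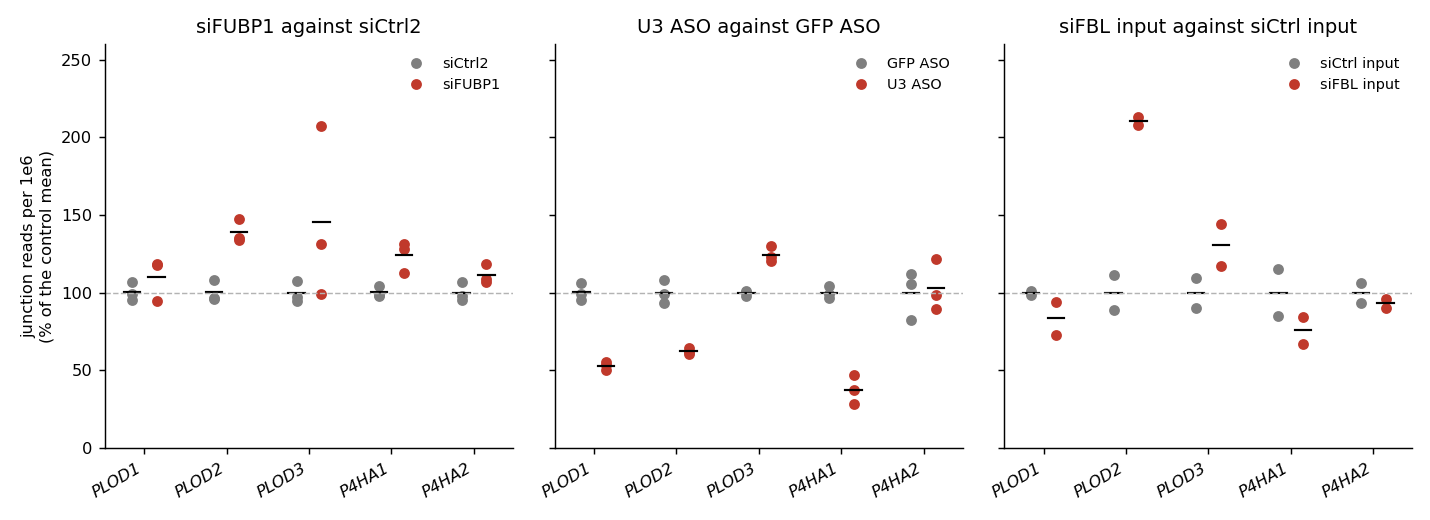
Junction reads of the 5 genes per 1e+06 junction reads (y axis, as a percentage of the mean of the controls) in the 3 comparisons, with points for libraries and short lines for means. Grey marks controls and red marks depletions. Under U3 ASO, P4HA1, PLOD1 and PLOD2 lie at 37.6%, 52.8% and 62.2% of control, and after siFUBP1 PLOD2 lies at 139%.

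FUBP1 RIP separated the 5 genes over a wide range. Enrichment is the log2 ratio of RIP over input in the authors' table, with its standard error. In siCtrl cells PLOD2 RNA was enriched at 1.13 ± 0.07, a ratio of 2.19, above 65.8% of the 11581 genes compared. P4HA1 was at 0.03 ± 0.11 and P4HA2 at -0.51 ± 0.09, above 48.2% and 40.8% of genes. PLOD1 and PLOD3 were depleted from the RIP at -3.49 ± 0.07 and -3.51 ± 0.12, with only 2.72% and 2.62% of genes below them. The order of PLOD1 and PLOD3 cannot be told from these errors, whereas the gaps between P4HA2, P4HA1 and PLOD2 exceeded them. The median gene was at 0.154, and 52.3% of genes were above 0.

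Enrichment also followed the span of the gene. Across 11283 genes with a GENCODE span, Spearman's rho between span and enrichment was 0.434, as a description across genes measured in the same libraries. With genes split by span into 5 groups of like size, median enrichment went from -1.85 in the shortest group to 1.28 in the longest. PLOD2, P4HA2 and P4HA1 span 128.6, 105.2 and 89.8 kb, and PLOD1 and PLOD3 span 41.3 and 12.4 kb. Spans take in all GENCODE transcripts. The exons of the P4HA2 events end at chr5:132227853, short of the outer end of its span at chr5:132295315. PLOD2 lay close to the median of genes from 95.2 kb (1.28) and P4HA2 below it. P4HA1 lay below the 0.9 of genes from 45.5 to 95.1 kb, PLOD1 below the 0.07 of genes from 23.9 to 45.5 kb, and PLOD3 below the -0.8 of genes from 10.7 to 23.9 kb. Whether span has a part in the differences between the 5 genes was not tested.

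**Figure D4:**
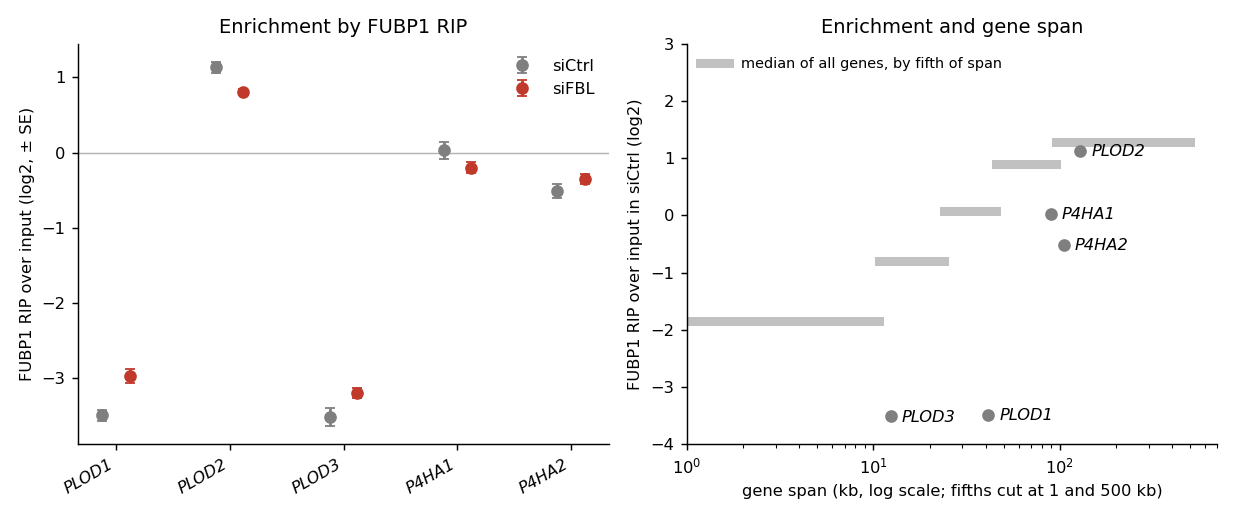
FUBP1 RIP enrichment over input (log2, y axes). Left, the 5 genes in siCtrl (grey) and siFBL (red) cells with standard errors. Right, enrichment in siCtrl against gene span (kb, log scale), with grey bars for the median of all genes in each of the 5 groups by span; the ends of the outer groups are clipped. PLOD2 is at 1.13 and PLOD1 and PLOD3 are near -3.5.

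After FBL depletion PLOD2 was less enriched and PLOD1 less depleted. PLOD2 was at 0.81 ± 0.03 and PLOD1 at -2.97 ± 0.09, differences of -0.31 and 0.52 relative to the median gene. PLOD3, P4HA1 and P4HA2 were at -3.19 ± 0.07, -0.2 ± 0.07 and -0.35 ± 0.07, differences of 0.33, -0.23 and 0.16. By a z value from both standard errors, adjusted over all genes, PLOD2 was called lower and PLOD1 higher, where 8.14% of all genes were called lower and 6.6% higher, and the other genes missed the threshold. These values were known when the genes were chosen and serve as a description. Moves toward 0 were not particular to PLOD1 and PLOD2. Of the 13 partner genes treated below, 8 that were below 0 in siCtrl cells were called higher, and ERO1A, at 2.78, was called lower. All 9 hepatocyte markers were below 0, and 7 were called higher and 0 lower. Whether the changes follow the enrichment in siCtrl cells was not tested. Each mean rests on 2 RIP and 2 input libraries, and values per library were not analysed here.

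The partners of these enzymes formed a list of 15 genes, chosen with earlier results of these data known. Under U3 ASO 7 of the 11 with reads were called lower and 0 higher, and their median log2 change was -0.56 against 0.27 over all genes and -0.43 over the hepatocyte markers, of which 6 of 8 were called lower. P4HB, the partner subunit of P4HA1 and P4HA2, changed by -0.75 ± 0.05 (SE, adjusted p = 3.47e-11 by limma) and PPIB, a proline isomerase of collagen folding, by -0.76 ± 0.05 (adjusted p = 3.26e-11). The prolyl 3-hydroxylase P3H1 and the collagen galactosyltransferase COLGALT1 changed by -0.73 each, ERO1A, which reoxidises protein disulfide isomerase, by -0.79, P3H4 by -0.56 and FKBP10 by -0.25. All 7 were also called lower with centred libraries. CRTAP, at 0.06, and SERPINH1, the collagen chaperone HSP47, at -0.21, did not pass the threshold, and SERPINH1 passed it with centred libraries. After FUBP1 depletion 1 of 12 was called, FKBP10, a chaperone of lysyl hydroxylation, which rose by 1.02 ± 0.14 (adjusted p = 8.7e-06 by limma). After FBL depletion 1 of 7 was called, PPIB, which rose by 0.45 ± 0.1 (adjusted p = 0.0174 by limma). Of all genes, 9.01% were called lower and 30.4% higher under U3 ASO, and 4.82% and 4.29% after FUBP1 depletion. After FBL depletion these shares were 2.19% and 0.807%.

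By RIP, 11 of the 13 partners with values were below 0 in siCtrl cells, from -1.47 for COLGALT2 to -3.52 for P3H3, and their median was -2.74. ERO1A (2.78) and TMEM38B (2.35) were above 0. After FBL depletion 8 partners were called higher and 1, ERO1A, lower, where 6.6% of all genes were called higher and 8.14% lower. Hepatocyte markers were likewise below 0 in siCtrl cells, 9 of 9 with a median of -1.47, and 7 of them were called higher after FBL depletion.

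Few collagen chains had tested events in this line, with 4, 6 and 5 of 27 in the siFUBP1, U3 and input tables. COL2A1 junction reads fell under U3 ASO by 1.27 on the log2 scale (SE 0.13, adjusted p = 6.31e-08 by limma) and COL18A1 by 0.25, whereas COL4A5 rose by 0.97. Of 6 chains under U3 ASO 2 were called lower and 2 higher. COL4A6 lost its call with centred libraries. No chain was called after FUBP1 depletion (of 4) or FBL depletion (of 5). Of 10 secretion and crosslinking genes 1 was called after FUBP1 depletion, the lysyl oxidase LOX, which acts on lysines and hydroxylysines and rose by 0.73 ± 0.16 (adjusted p = 0.00485 by limma), and of 12 under U3 ASO 3 were lower and 4 higher, or 4 and 3 with centred libraries. Among other 2-oxoglutarate oxygenases ASPH, the aspartate hydroxylase, rose by 0.69 ± 0.12 after FUBP1 depletion (adjusted p = 0.000175 by limma) and by 0.98 ± 0.16 after FBL depletion (adjusted p = 0.000373 by limma). The latter list had 1 of 8 lower and 2 higher after FUBP1 depletion, 0 of 12 lower and 4 higher under U3 ASO (1 with centred libraries) and 1 of 3 higher after FBL depletion. Beside these counts stand the shares of all genes called lower and higher. They were 4.82% and 4.29% after FUBP1 depletion, 9.01% and 30.4% under U3 ASO, and 2.19% and 0.807% after FBL depletion.

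No skipped exon of these 4 lists was called in any table by the quasi-binomial fit. The smallest p after FUBP1 depletion was that of a MIA2 exon (chr14:39320928-39321056), a gene of collagen export, whose mean level went from 0.695 to 0.353 (adjusted p = 0.193 over all events). In the other lists the smallest p belonged to exons of FKBP10, COL18A1 and ASPH, which changed by 0.0518, 0.0191 and 0.0582. Under U3 ASO they belonged to P3H4, MIA2, COL27A1 and ASPH (changes of -0.0642, -0.148, 0.0887 and 0.0689), and after FBL depletion to P3H4, SEC31A, COL27A1 and ASPH (changes of -0.173, -0.0898, -0.292 and 0.0497).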

How the data were processed

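RNA of HepG2 cells was sequenced in 20 libraries of 8 groups: poly(A)-selected RNA after siFUBP1, U3 ASO and their controls, and FUBP1 RIP RNA and lysate input RNA, for which no poly(A) selection is named, in siCtrl and siFBL cells. The authors trimmed adapters with Cutadapt, aligned reads to hg38 with HISAT2 and counted inclusion and skipping junction reads of skipped exons with rMATS, and the deposited lists of junction reads and effective lengths were used as given. The RIP table holds the authors' log2 fold change of RIP over input from DESeq2, fitted apart for siCtrl and siFBL cells. Its standard errors and mean normalized counts are score columns as deposited. The methods name HTSeq for counting and the labels featureCounts. Versions and the annotation release are not given in the sources used here. Lists of reads carry no replicate number, so libraries are named by their place in the list. The authors' p-values, FDR values and inclusion differences were not used, nor were 6 columns of inclusion levels.

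The members, gene lists and measures were chosen with earlier results of these data known. Events with at least 10 junction reads per library on average were tested. Each event was fitted with a quasi-binomial model of inclusion against skipping reads, its dispersion was moderated over events with squeezeVar of limma 3.58.1 (R 4.3.3), and it was called at a Benjamini-Hochberg adjusted p under 0.1 over the whole table. Junction reads per gene were compared by exact permutation tests and, as an addition made after seeing the data, by limma with a variance trend on log2 reads per 1e+06 with 0.5 added. Differences in RIP enrichment took genes with mean counts of at least 50 in both conditions. Exons were named if they had the most information of their gene in a table, were tested in all 3 tables, or had groups apart by at least 0.05. Exon annotation is GENCODE 44, and sequence is hg38. On simulated data with 200 changed events the fit recovered 77%, 76.5% and 65.5% of them in the siFUBP1, U3 and input tables. The changed events were drawn from those with many reads and intermediate inclusion. Their noise had a fixed size that was not fitted to these tables. Their median shift in inclusion was 0.374, 0.363 and 0.349. The shares recovered do not apply to smaller changes or to events with few reads. Reads in the tables of 910779 to 13321799 junction reads per library set the precision, and intervals cover counting error only, since reads without molecular identifiers were counted. Alternatives were other dispersions, limma on log2 odds, other minimum reads, centred libraries and leaving out each library.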

Additional observations from a re-analysis of the deposited data

Results flagged for a closer look

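The effect of FUBP1 RIP over input differed between siFBL and siCtrl cells for PLOD1 and PLOD2. PLOD1 enrichment was 0.52 higher in siFBL cells on the log2 scale, relative to the median gene (adjusted p = 0.000189 by a z value from the standard errors of the authors' DESeq2 fits, over 11581 genes). PLOD2 enrichment differed by -0.31 (adjusted p = 0.00192 by the same z value). These values were already known when the genes were chosen, so the p-values are no independent evidence of a difference, and the z value takes both fits as independent. Such moves toward 0 were also seen in partners and hepatocyte markers, as given above. No group had 4 or more libraries, so single libraries were not examined for standing apart within a group.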

How the results depend on the processing

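No paired analysis was possible because the lists of reads carry no replicate numbers. Counts of all called exons depended most on the test. After siFUBP1 32 were called, against 8 by limma on log2 odds, 116 with a variance trend and 20 to 30 without 1 library. Under U3 ASO 68 were called, against 41 with an event's own dispersion where higher, 0 by limma (1961 at an unadjusted p under 0.05), 325 with a variance trend, when 1 event of the 5 genes was called, and 33 to 60 without 1 library. After siFBL 0 were called (118 at an unadjusted p under 0.05), against 3 by limma with a variance trend. The causes were not tested. By junction reads 1 of the 5 genes was called after siFUBP1, against 2 with centred libraries and 1 to 2 without 1 library, and groups were apart for 2, against 2 to 4. After siFBL, with centred libraries, groups were apart for 2 and 1 was called. Directions reversed for P4HA2 junction reads with centred libraries (-0.24 under U3 ASO and 0.09 after siFBL) and without 1 library (-0.09 to 0.14 under U3 ASO). Without 1 library inclusion changes ran from -0.0151 to 0.0522 for P4HA1 exon B after siFUBP1 and from -0.0059 to 0.00969 for PLOD3 exon 6 under U3 ASO. After siFBL they ran from -0.251 to 0.518 for the P4HA2 form of 173 bases and from -0.0226 to 0.00615 for the PLOD1 exon of 141 bases. PLOD2 exon 14 after siFBL ran from 0.296 to 0.409. Of 355 other recomputed values 344 did not reverse or change call, and 3 passed the threshold only under the alternative. Other dispersions, limma on log2 odds and other minimum reads leave the inclusion change of an event as it is. Its direction could therefore not reverse under those settings. A change that fell to 0 was counted as not reversed, as for PLOD1 exon 8 after siFUBP1 without 1 siCtrl2 library. No call of the 5 genes by RIP changed with a minimum count of 10 or without centring. The small number of reads limits the input table most.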
